A study of Mus musculus with 4 samples.

Results

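The scaffold genes of the excitatory postsynaptic density were examined in a list of C-to-U editing sites from mouse cortex. They are Dlg4, Dlg2, Dlgap1, Shank1, Shank2, Shank3 and Homer1, chosen by gene symbol with earlier results of these data known. All 7 were listed, and together they held 141 of the 28412 sites, among 4206 gene symbols. The sites come from scDART-seq, which uses a fusion of APOBEC1, a cytidine deaminase, with the YTH domain, a protein fold that binds N6-methyladenosine (m6A) in RNA. The fusion edits cytosines beside m6A to uracil, and sequencing reads the edits as C-to-T changes. The pooled cortical cells carried either APOBEC1-YTH or APOBEC1-YTHmut, a version labelled as mutant in the YTH domain. Both kinds of mice received tamoxifen at 20 mg/kg every 24 h for 5 days, starting at 6 to 8 weeks of age, and cortex was taken 7 days after the last dose. The sources used here do not give the promoter that drives the fusion or the cells in which it is active. The labels place replicates 1 and 2 in each of the 4 sublibraries, which are portions of 1 barcoded pool. The list names no sublibrary, genotype or cell type, so it holds 1 value per site and no replicates, and no test between groups was possible. The sources used here do not say how sites were filtered against APOBEC1-YTHmut. A listed site therefore cannot be assigned to m6A from the list alone.

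The postsynaptic density is a protein mesh under the membrane of excitatory synapses that holds glutamate receptors in place. It is built in layers: membrane-associated guanylate kinases (Dlg4 and Dlg2) bind receptor tails, Dlgap1 links them to Shank proteins, and Shank proteins meet Homer, which reaches metabotropic glutamate receptors. The mRNAs of several of these proteins are known to travel into dendrites, where they can be translated near synapses. m6A is a common mark of brain mRNA, placed mostly at an A followed by C, and it affects the stability, translation and location of transcripts.

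The sequences around the leading sites are shown to let their contexts be compared. Each is 21 nt long, read 5' to 3' from GENCODE M21 transcripts in mm10 coordinates on the plus strand, where all 7 genes lie. The edited C is the fourth of the 5 bases in capitals. They cover the site with the highest count of each gene and further sites described below.
Dlg4, 3' UTR, chr11:70044709-70044729: ttggcctGGACTcaccctgcc
Dlg4, 3' UTR, chr11:70044812-70044832: tcctttcTGACTggatcgagc
Dlg2, 5' UTR, chr7:91090896-91090916: acagaggGAACGgatgctcct
Dlg2, coding, chr7:91965679-91965699: agttggcAAACCcaccactat
Dlgap1, 3' UTR, chr17:70820458-70820478: tccaagtGAACGgcatttgta
Dlgap1, 3' UTR, chr17:70819738-70819758: aaacgaaAGACTtaaaagaaa
Shank1, coding, chr7:44353018-44353038: cacgctaCGACGccccaccgc
Shank1, coding, chr7:44312897-44312917: tccctgaCGACGcccacttca
Shank1, 3' UTR, chr7:44359768-44359788: aaaagagAAACAatagcaaaa
Shank2, coding, chr7:144420671-144420691: gaaagcaGAACCtcaggacct
Shank3, coding, chr15:89501426-89501446: atgcccaGAACCtcatagatg
Homer1, coding, both forms, chr13:93341797-93341817: ttgacccGAACAcaaagaaga
Homer1, 3' UTR of the short form, chr13:93357126-93357146: ctccgtcTGACTcccacacat
All of these have an A or G followed by AC, a pattern called RAC here, but the base after the edited C varies. In the leading sites of Dlgap1, Shank1 and Dlg2 that base is G. DRACH, the m6A consensus, is RAC with any base but C ahead of it and any base but G behind it. Those 3 leading sites therefore lie outside it, whereas the leading sites of Dlg4, Homer1, Shank2 and Shank3 lie inside it.

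The number of sites differed widely between the 7 genes. Shank1 had 46 sites, Dlgap1 38, Homer1 21, Dlg4 20, Dlg2 8, Shank2 7 and Shank3 1. The median was 20 sites per scaffold gene, against 2 over all listed symbols. Of the 7 genes, 4 had 10 or more sites, as did 16.9% of all listed symbols. All 7 had a site, as did 17.5% of annotated protein-coding symbols, whether or not expressed in cortex. The 7 were chosen with earlier results of these data known, which limits these contrasts. Per kb of merged exon Dlg2 and Shank2 changed places and the other genes kept their order: Shank1 had 4.38 sites per kb, Dlgap1 2.12, Homer1 1.75, Dlg4 1.51, Shank2 0.650, Dlg2 0.491 and Shank3 0.109. The median was 1.51 sites per kb for the scaffold genes and 0.453 for listed symbols with annotated exons. The list gives neither read depth nor transcript abundance, and more sites from more editing or from deeper reads of a transcript cannot be told apart.

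**Figure D1:**
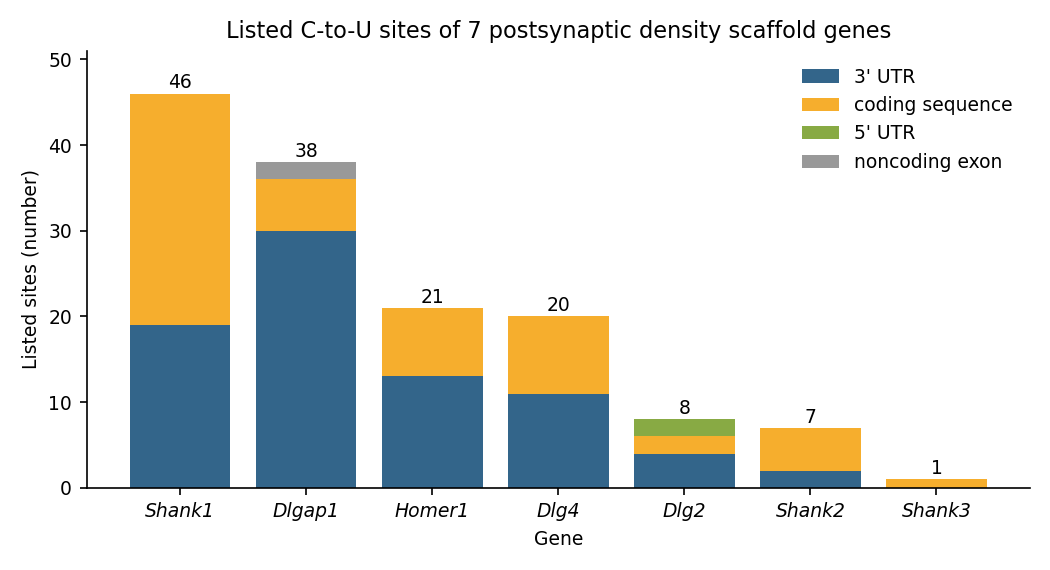
Number of listed sites (vertical axis) for each of the 7 scaffold genes (horizontal axis), with colours for the annotated region of the site. Shank1 has 27 of its 46 sites in coding sequence, Dlgap1 30 of its 38 in the 3' UTR, and Shank3 a single site.

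The site count, an unlabelled whole number that the list gives for every site, set Dlgap1 apart from the other scaffold genes. Its highest count was 339 (exact 95% Poisson interval 304 to 377, counting error only). The highest count was 41 in Shank1 (29.4 to 55.6), 26 in Dlg2 (17.0 to 38.1), 23 in Dlg4 (14.6 to 34.5), 21 in Homer1 (13.0 to 32.1), 11 in Shank2 (5.49 to 19.7) and 3 in Shank3 (0.619 to 8.77). Below Dlgap1, every neighbouring pair in this order had overlapping intervals, so the order of those neighbours is not settled. The overlap does not show that they are equal, and whether they differ was not tested. Each value is also the highest of 1 to 46 sites, a choice that the intervals do not cover. Dlgap1 ranked number 24 of the 4206 symbols by highest count, while Shank1 ranked number 423. Of the 7 genes, 5 had a highest count of 20 or more, as did 21.9% of all listed symbols. The median site count was 4 over the 141 sites and 4 over the whole list. Sites with a count of 20 or more made up 15 of the 141, or 10.6%, near the 12.1% of the whole list, and Dlgap1 with 6 and Shank1 with 5 held most of them. A count of 3, the lowest in the list, was carried by 59 sites of the scaffold genes, 41.8%, against 41.0% of the whole list.

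**Figure D2:**
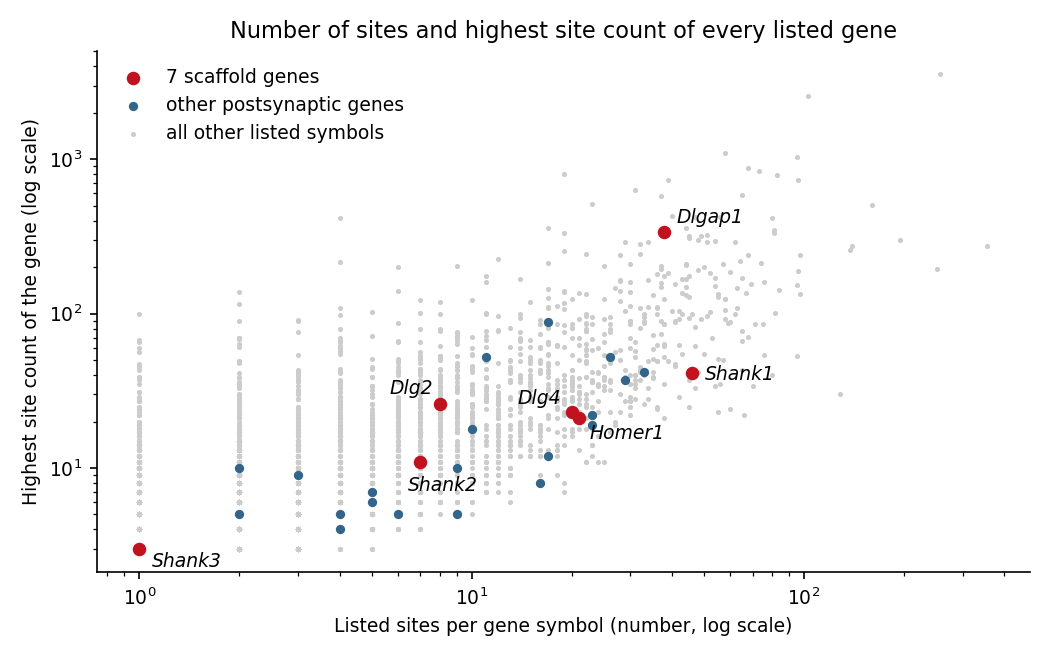
Each point is a listed gene symbol, with its number of sites (horizontal, log scale) against its highest site count (vertical, log scale). The 7 scaffold genes (red) run from Shank3 with 1 site and a count of 3 to Dlgap1 with 38 sites and a count of 339, and Shank1 has the most sites of them at a highest count of 41.

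Dlg4 encodes PSD-95, the most studied scaffold of the postsynaptic density, and lies on chromosome 11 between 70016942 and 70047522. Its leading sites stood in a row just after the stop codon. At 24, 61, 127, 153, 263 and 297 nt after it, the counts were 23, 10, 18, 13, 9 and 3, all in DRACH. The first pair has the context GGACT. The next sites in the 3' UTR, at 448 to 829 nt, had counts of 3 to 5. On the annotated transcript with the longest coding sequence, Dlg4-204, whose 3' UTR is 837 nt long, 9 of the 13 RAC cytosines in the 3' UTR were listed, or 69.2%. An annotated form with the same stop codon, Dlg4-215, has a 3' UTR of 2827 nt with 62 RAC cytosines, and the same 9 were listed. Its coding sequence held 9 sites, with counts of 3 or 4 except 12 at position 70031779. The remaining site, at 70032744 with a count of 3 and outside RAC, lies in the 3' UTR of a truncated transcript (Dlg4-214) and in an intron of the full-length ones.

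Dlg2 encodes a close relative of PSD-95 and lies on chromosome 7 between 90476672 and 92449247. Its 8 sites were few and scattered. The highest count, 26 at position 91090906, was in the first exon of the transcript Dlg2-204, in its 5' UTR, with a second site of count 3 at 91090871. This exon is an alternative start, and it lies within an intron of Dlg2-217, the transcript with the longest coding sequence. Both 5' UTR sites of the 7 genes are thus in this exon. The second highest count, 16 at 91965689, was in coding exon 13 of Dlg2-217, with a site of count 3 placed 4 bases before it. Its 3' UTR of 4630 nt held 4 sites, at 752, 1485, 1817 and 3195 nt after the stop codon, with counts of 6, 5, 3 and 3. That is 4 of 108 RAC cytosines, or 3.70%, where Dlg4 had 14.5% on Dlg4-215. In the span of Dlg2, 8 further sites are listed under 3 other symbols, and they are not counted here.

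Dlgap1 encodes GKAP, the protein that ties PSD-95 to Shank, and lies on chromosome 17 between 69969073 and 70821413. Of its 38 sites, 30 lay in the 3' UTR and 24 of these formed a stretch between 1461 and 2428 nt after the stop codon, in which no 2 neighbouring sites were over 400 nt apart. This stretch held the 2 highest counts of all 7 genes, 339 at position 70820468 (2234 nt after the stop codon, context GAACG) and 198 at 70819748 (1514 nt, context AGACT). Only 121 of the 28412 listed sites had a count above 339, and 265 had one above 198. The other counts in the stretch reached 43 at 70819831 and 34 at 70819741, 7 bases before the site with 198. Before this stretch the 3' UTR held 3 sites with counts of 3 to 17, and after it 3 sites with counts of 4 to 7. Over the 3' UTR, 22 of 80 RAC cytosines were listed (27.5%), against 4 of 86 in the coding sequence (4.65%). Coding sites were 6, with counts of 3 except 8 at 70761129. A further pair, with counts of 13 and 3 at 70719078 and 70719072, lies in the last exon of a noncoding transcript (Dlgap1-212) and in an intron of the coding form. The 21 nt around the site with 43 also occur in a transcript of 1 other gene, Lztfl1, so reads there are less certain.

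Shank1 had a different layout. Shank proteins are the large scaffolds of the deeper layer of the density, and Shank1 lies on chromosome 7 between 44310253 and 44360572. More of its sites were in the coding sequence (27) than in the 3' UTR (19), and its coding sequence of 6504 nt is the longest of the 7. The highest count, 41 at position 44353028, was in exon 24, at 2334 nt before the end of the stop codon. The second, 32 at 44312907, was in exon 2, at 6303 nt before it, near the start of the protein. Both are in the context CGACG, as the sequences above show. The third coding site had a count of 27, at 44351573 in exon 24. In the last exon, 5 coding sites with counts of 5 to 16 gathered between 647 and 705 nt before the end of the stop codon. The 3' UTR held its leading counts far from the stop codon, with 30 at 2441 nt and 25 at 2687 nt after it. Between 2406 and 2687 nt lay 9 of the 19 sites of the 3' UTR, while the first 400 nt had 6, with counts of 3 to 9. Of its RAC cytosines, 14 of 55 were listed in the 3' UTR (25.5%) and 23 of 178 in the coding sequence (12.9%).

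Shank2 and Shank3 encode the paralogues of Shank1, and both are widely studied in autism. Shank2, on chromosome 7 between 144001928 and 144424494, had 7 sites, with counts of 11, 8, 5, 4, 4, 3 and 3. The highest was at 144420681 in the last coding exon, followed by 8 at 144411089 in the context GGACT. In the coding sequence 5 of 186 RAC cytosines were listed (2.69%), and in the 3' UTR 2 of 92 (2.17%). Shank3, on chromosome 15 between 89499623 and 89560261, had 1 site, with a count of 3, at 89501436 in coding exon 3. Its 3' UTR has 39 RAC cytosines, and 0 of them were listed. The coding sequences of Shank1, Shank2 and Shank3 have 178, 186 and 138 RAC cytosines, of which 23, 5 and 1 were listed. Read depth and transcript abundance are not given for them, and the cause of the difference was not tested. None of the 21 nt windows around the sites of the Shank and Dlg genes occurs in an annotated transcript of another gene.

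**Figure D3:**
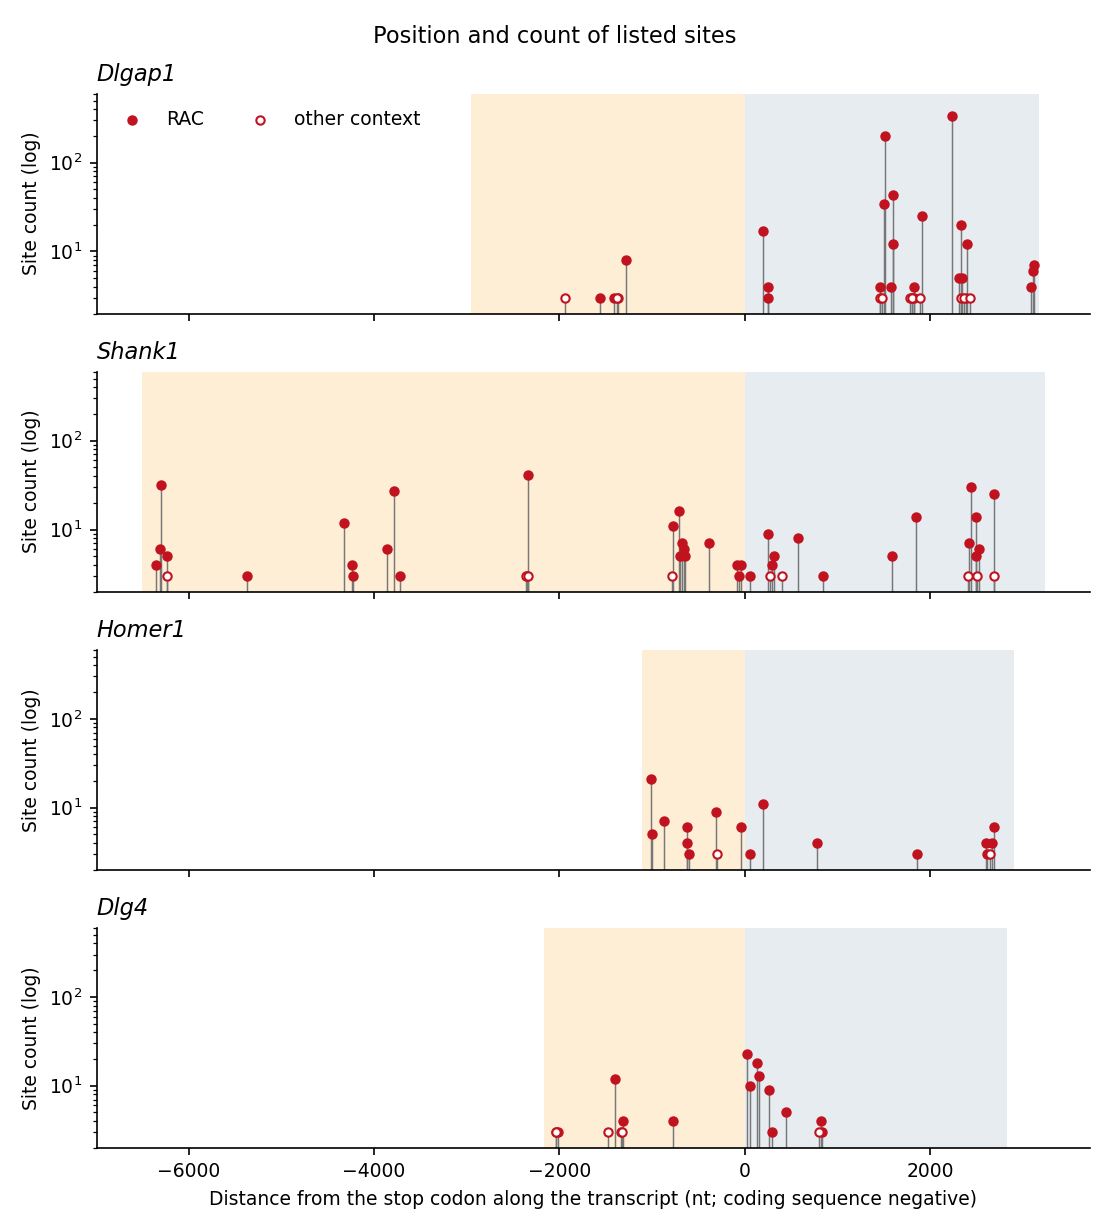
Site count (vertical, log scale) against distance from the stop codon along the transcript (horizontal, nt, coding sequence negative) for the 4 genes with 10 or more sites. Yellow marks coding sequence, blue the 3' UTR, filled points RAC and open points other contexts. Sites in introns of the drawn transcript are not shown: 3 of Homer1, among them a count of 20, 2 of Dlgap1 and 1 of Dlg4. Dlg4 has its leading sites just after the stop codon, Dlgap1 between 1461 and 2428 nt after it, and Shank1 along the coding sequence and again at the far end of its 3' UTR.

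Homer1 has forms with different ends, and its sites were placed on a short and a long one by exon. The short form is known as Homer1a, an immediate early gene product induced by synaptic activity, which lacks the coiled coil through which long Homer proteins assemble. It corresponds to Homer1-204, with 5 exons, 186 codons and a 3' UTR of 4349 nt. Homer1-202 has 9 exons, 370 codons and a 3' UTR of 2900 nt. Of the 21 sites, 6 lay in exons of both forms, 3 in the short form only and 12 in the long form only. The shared coding sites included the highest count, 21 at position 93341807 of chromosome 13 in exon 2. In the sequence particular to the short form, the counts were 20 at 93357136, 3 at 93357132 and 3 at 93359321. The last of these lies in a 21 nt sequence that occurs in transcripts of 186 other genes, so it is uncertain. The 12 sites of the long form had counts of 3 to 11 with a median of 4, and the highest was 11 at 93402425, in the last exon at 196 nt after the stop codon. Per length, the 3' UTR held 0.690 sites per kb in the short form and 3.10 in the long form, and 2 of 94 against 8 of 66 RAC cytosines were listed. The 3' UTR of the short form is an intron of the long one, so reads of the short mRNA and of unspliced precursor cannot be told apart. The site at 93402186, with a count of 6, is coding in Homer1-202 and 3' UTR in the annotated transcript Homer1-208, and is counted as 3' UTR in the total of 13.

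**Figure D4:**
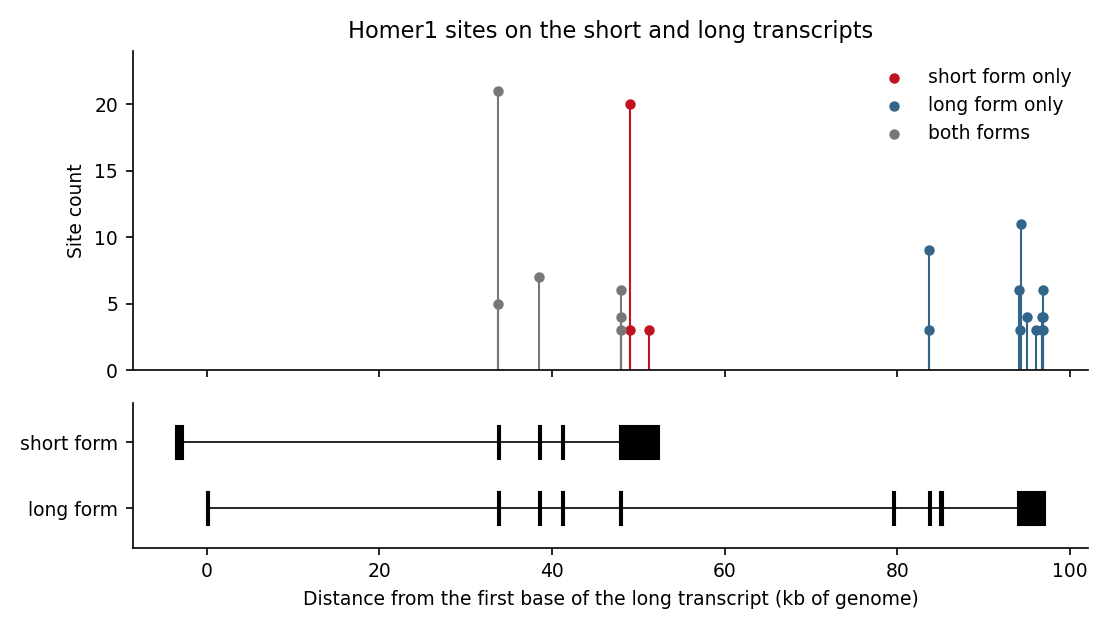
Site count (vertical) of the 21 Homer1 sites along the gene (horizontal, kb of genome from the first base of the long transcript), with the exons of both forms drawn below. The short form has 1 site of count 20 in its own 3' UTR, and the 12 sites of the long form stand at the far end with counts of 11 or less.

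Features of the 141 sites were then set beside the whole list. The coding sequence held 58 of them, 41.1% (95% Wilson interval 33.4 to 49.4, counting error only), against 26.0% of the whole list. Shank1 held 27 of these 58. Noncoding exons held 1.42% of the 141 sites and 9.75% of the whole list, so the 2 coding shares rest on unlike mixes of transcripts. On the transcript of the longest coding sequence, coding sites were 59 of 133, against 8141 of 24063 in the whole list. The 3' UTR held 79 of the 141 sites, or 56.0% (47.8 to 64.0), against 61.9% of the whole list. Without Shank1 the 3' UTR share was 63.2%, and without Dlgap1 it was 47.6%, so the share depends on which gene is included. Within 400 nt of the stop codon, on the longest coding transcript, lay 19 of 111 sites, 17.1% (11.2 to 25.2), against 30.3% of the whole list. For Dlg4 and Homer1 the longest coding transcript is a truncated form. On the transcript of the longest coding sequence the share was 24 of 133, 18.0% (12.4 to 25.4), against 30.6%. Of these 24, Shank1 held 10, Dlg4 6, Homer1 5 and Dlgap1 3, while Dlg2, Shank2 and Shank3 had 0. Sites of a gene share their transcript and are not independent, so these are descriptions and no test was made.

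The sequence contexts were compared in the same way. RAC held 112 of the 141 sites, 79.4% (72.0 to 85.3), against 77.8% of the whole list, and DRACH held 79, 56.0% (47.8 to 64.0), against 55.2%. RAC held all 82 sites whose count was 4 or more, and DRACH held 59 of them, 72.0%, against 72.1% of the whole list. In the whole list too no classed site with such a count lies outside RAC, so the RAC share at these counts is a property of the list. A G after the edited C was found at 12 of the 82 sites, 14.6% (8.57 to 23.9), against 14.7% of the whole list. At a count of 20 or more it was 5 of 15, 33.3% (15.2 to 58.3), against 13.0%, and the 5 were 2 sites of Dlgap1, 2 of Shank1 and 1 of Dlg2. The 4 bases GGAC were present at 6 of the 82, 7.32% (3.40 to 15.1), against 6.60% of the whole list, and 3 of those 6 were in Dlg4. Of the 29 sites outside RAC, all with a count of 3, 12 stood within 10 nt of a RAC site with a count of 4 or more (41.4%, 25.5 to 59.3), against 62.4% of the whole list. Examples are 44353025 and 44360021 in Shank1, each 3 bases before sites with counts of 41 and 25. Among 59 coding sites on the transcripts of the longest coding sequence, 35 were at the third codon position, 17 at the second and 7 at the first. The third position thus had 59.3% (46.6 to 70.9) of them, against 46.1% of coding sites in the whole list. The first had 11.9% (5.87 to 22.5), against 28.9%. Shank1 held 27 of these 59 coding sites. RAC cytosines were not counted by codon position, so a part played by codon usage was not tested.

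**Figure D5:**
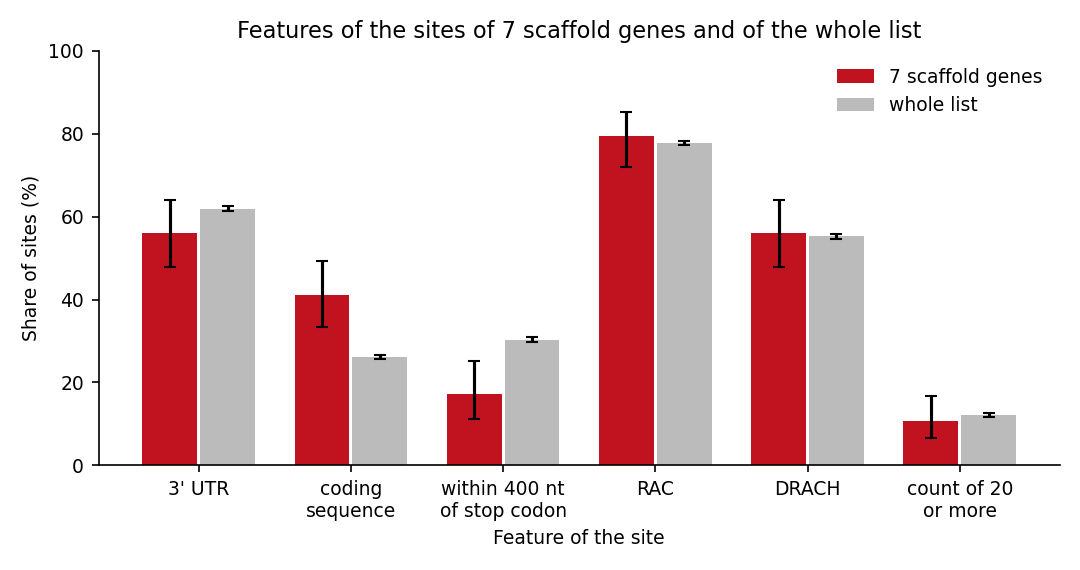
Share of sites (vertical, %) with each feature (horizontal) for the 141 sites of the 7 scaffold genes (red) and for the whole list (grey), with 95% Wilson intervals that cover counting error only. The coding share is 41.1% against 26.0%, and the share within 400 nt of the stop codon 17.1% against 30.3%. The latter uses the longest coding transcript, a truncated form for Dlg4 and Homer1. On the transcript of the longest coding sequence it was 18.0% against 30.6%. The RAC and DRACH shares of the whole list lie within the intervals of the scaffold genes. Shank1 holds 27 of the 58 coding sites, and noncoding exons hold 1.42% of the 141 sites against 9.75% of the whole list.

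Other postsynaptic genes had a lower median number of sites than the 7. Of 30 such genes, 23 were listed, as were 17.5% of annotated protein-coding symbols. Of the 23 listed, 10 had 10 or more sites, as did 16.9% of all listed symbols. Over all 30 the median was 4.5 sites with unlisted genes counted as 0, against 20 for the scaffold genes. The scaffold genes and these lists were chosen with earlier results of these data known, which limits the contrast. The 19 excitatory partners among them had a median of 9, with 15 listed and 8 with 10 or more sites. Ppp1r9a, encoding the actin-binding neurabin, had 29 sites with a highest count of 37, and Kalrn, a GTPase exchange factor of dendritic spines, had 26 sites with a highest count of 52. Agap2, a GTPase-activating protein, had 23 sites with a highest count of 22, and Cnksr2, a scaffold of Ras signalling, had 23 sites with a highest count of 19. The scaffold genes have 7 paralogues in the fixed list, of which 5 were listed, and their median was 1 site. Dlgap4 had 17 sites and a highest count of 88, while Dlgap2 had 1 site, Dlgap3 2, Dlg1 4 and Homer2 1, and Dlg3 and Homer3 had 0. Among scaffold genes of inhibitory synapses, Gphn, which encodes gephyrin, had 5 sites and Insyn1 had 1. For a gene at 0, little RNA, little editing and a filter cannot be told apart here.

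As a check of the labelled tissue, sites were present in 5 of 6 markers of excitatory neurons, 1 of 3 of inhibitory neurons, 3 of 4 of astrocytes, 3 of 3 of oligodendrocytes and 2 of 3 of microglia. Of annotated protein-coding symbols, 17.5% had a site. The markers of microglia had 2 sites in all, those of inhibitory neurons 7, oligodendrocytes 67, excitatory neurons 132 and astrocytes 338. The list thus holds sites in markers of several cell types, with little basis for microglia. The cells in which the scaffold genes were edited are not recorded in it. All 141 sites had a C on the gene's strand and lay in an annotated exon, and 0 lay in an exon of another gene on either strand. A site with a count of 3 stands at the lower edge of the list and is the least certain.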

How the data were processed

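Single cells of mouse cortex were profiled by scDART-seq in 4 sublibraries of 1 cell pool. Per the submitters' processing notes, STAR 2.7.5 and the build mm10 were used, and per the series text the Bullseye pipeline found the sites of C-to-U conversion. The authors deposited 1 list without a header, giving for every site a position, strand, gene symbol and whole number. The values in this deposited list were used as counts with no normalization. The sources used here do not say what the number counts, how sites were filtered or how deeply the libraries were read.

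Sites were placed on GENCODE M21 (mm10 coordinates), 27872 by symbol and strand and 496 by position, and 44 found no gene. All sites of the scaffold genes were matched by symbol. A C stood on the listed strand at 28337 of 28338 exonic sites, and 28317 had a full 5 nt context. Where transcripts differed, the 3' UTR took precedence over CDS (coding sequence), then 5' UTR, noncoding exon and intron. Distances were counted from the last base of the stop codon. Those near single genes use the stop codon of the longest coding sequence and, of the transcripts that share it, the one with the longest 3' UTR, except where a transcript is named. Placement was tested on simulated sites in 400 genes with a single annotated transcript, where 1200 of 1200 sites came back to their region. The simulated positions were made from the same transcript coordinates that placement uses. The choice between several transcripts of a gene, which the scaffold genes have, was not tested.

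Shares have 95% Wilson intervals and highest counts exact Poisson intervals, both for counting error only, and no p-value was computed, because 1 list has no replicates. All 7 scaffold genes are named with up to 3 sites of highest count each, and of the other postsynaptic genes the 5 with the most sites, of which 1 is not reported here. Other sites and genes were picked for naming with their values known. The members and lists were chosen with earlier results of these data known. Alternatives covered the lowest count kept, merging of sites within 10 nt, the region order, the transcript, the window, the motif and each gene left out. Python 3.11.15, NumPy 2.4.6, SciPy 1.17.1 and matplotlib 3.10.9 were used.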

Additional observations from a re-analysis of the deposited data

How the results depend on the processing

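The 141 sites became 82 when only counts of 4 or more were kept, and also when only counts at or above the median of the list were kept. The median of 20 sites per scaffold gene was 10 at counts of 4 or more and 17 after merging sites within 10 nt, and corresponds to 1.51 sites per kb of merged exon. The share near the stop codon was 9.01% with a window of 200 nt. Counting RAC in place of DRACH gave 79.4%, and the DRACH share was 72.0% at counts of 4 or more, where sites outside RAC drop out. The median site count was 7 at counts of 4 or more and 23 with the highest site of each gene, both by construction. Leaving out 1 gene at a time gave 95 to 140 sites, a 3' UTR share of 47.6% to 63.2%, a share near the stop codon of 13.8% to 21.3%, a DRACH share of 51.7% to 62.1% and a median count of 4 to 4. Merging sites within 10 nt left 112 sites. The 3' UTR share was 55.3% with CDS before 3' UTR, 53.2% on the longest coding transcript, 57.3% at counts of 4 or more and 55.6% on the transcript of the longest coding sequence, all within its interval. The share near the stop codon was 18.8% at counts of 4 or more and 18.0% on the transcript of the longest coding sequence, also within its interval. The transcript of the longest coding sequence was added after seeing the data, because the longest coding transcripts of Dlg4 and Homer1 are truncated forms. No paired analysis was possible because sublibraries are not separated in the deposited list. Depth is unknown, so a gene with few sites is not shown to be less edited.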
